A study of Rattus norvegicus with 6 samples.

Results

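Low-centre tiles are promoter tiles of the rat genome whose middle had a lower ratio of captured to input DNA than their ends on all 3 control arrays. A tile is a cluster of array probes whose starts lie no more than 1000 bp apart. For each tile the mean log2 ratio of probes within 250 bp of its centre was taken, and the mean of probes over 500 bp away was subtracted. This difference is called the contrast, and a tile was chosen where it lay under -1, a 2-fold drop, on every control array. Tiles had to span 1000 to 2500 bp, lie on chromosomes 1 to 20 and hold at least 2 usable probes in the centre and 2 in the flanks. Of 16174 tiles, 11658 could be judged, and 2265 of them were low-centre tiles, 19.4% of those judged and 14.0% of all. The tiles were thus chosen by the contrast on the control arrays, so its depth there is a description and was not tested. The same rule chose 1242 tiles after normexp background correction and 1239 in the authors' deposited table.

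The DNA came from ovarian granulosa cells of Sprague Dawley female offspring at postnatal day 56. Their dams had been gavaged with water (control, 0 mg/kg) or with cadmium chloride (8 mg/kg body weight) from gestation day 1 to 21. Each group had 3 arrays of samples that the submitters call biological replicates. The labels name neither the number of animals per array nor their litters. P-values therefore reflect the variation among these arrays, part of which may be technical. Granulosa cell identity could not be checked against marker genes, since the files hold methylation signals at genome positions (build rn4) and no gene names.

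Methylated DNA immunoprecipitation captures fragments with an antibody against 5-methylcytosine. The captured DNA was labelled with Cy5 and the untreated input with Cy3, and both were hybridised together, so a high log2 ratio of Cy5 over Cy3 marks relative enrichment of methylated DNA. In mammalian promoters, CpG islands around the transcription start are usually unmethylated, while the surrounding sequence carries more methylation. The borders of an island are known as shores, and differences between tissues are often found there. A low centre with high flanks is the shape that a tile centred on such an island would give. Whether the low-centre tiles are centred on islands was not tested, since sequences and transcription starts were not analysed. The capture also depends on how many CpGs a fragment holds. A difference between probes holds each probe's own hybridisation too; only probe length was corrected here, and the rest was not tested.

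One array stood apart before any result. Cadmium replicate 2, scanned alone in its batch, had a narrower spread of contrasts over the 11658 tiles (SD 1.09) than the other 5 arrays (SD 1.45 to 1.55). The median raw log2 ratio of 45-base probes was 0.613 on it and 1.03 to 1.12 on the others, and that of 60-base probes was -2.22 against -2.77 to -2.58. Some values are therefore also given without that array, and the other cadmium values include it. The input was well above background at 89.7% to 98.2% of probes and the captured DNA at 74.1% to 77.7%. The number of arrays limits the precision.

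The middle of the low-centre tiles lay below the array's typical level and the flanks above it. Median centre ratios were -1.24, -1.29 and -1.31 on control arrays 1, 2 and 3 and -1.26, -0.83 and -1.25 on the cadmium arrays. Median flank ratios were 0.62, 0.67 and 0.71 on the control arrays and 0.68, 0.42 and 0.67 on the cadmium arrays. Cadmium replicate 2 was the least extreme array in both. Averaged over arrays, the control centre was -1.28 ± 0.031 (SD, n = 3) and the control flank 0.67 ± 0.045. Over all 11658 tiles the corresponding control medians were -0.038 for the centre and -0.097 for the flanks. The mean of the whole tile was near that of other tiles, at -0.087 ± 0.0069 in control against -0.071 over all tiles.

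The name of low centre and methylated flanks was read here as a centre below 0 and flanks above 0. In that sense, and in the probes that the rule used, it fitted most but not all of the chosen tiles. A ratio of 0 is the array's median for probes of equal length, so flanks above 0 need not be methylated. In the control means, 1710 of 2265 (75.5%) had a centre below 0 and flanks above 0, against 22.7% of all tiles. In 410 tiles (18.1%) both zones were below 0, and in 145 (6.40%) both were above it. Flanks were more than 2-fold above the array's typical level in 779 tiles (34.4%), against 11.8% of all tiles, and centres more than 2-fold below it in 1415 (62.5%), against 20.8%. Centres that low were more frequent than flanks that high in both sets. The difference between these same probes chose the tiles, so the shares are a description and do not test the name.

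In the probes that the rule used, the dip was 2-sided in about 2 of 3 tiles. The choice acted on these same probes, so the shares that follow are a description. Among 1240 low-centre tiles with at least 2 usable probes on each side, both flanks exceeded the centre by more than 1 in 806 (65.0%), against 12.3% of all tiles with such probes. In the other 434 (35.0%) a single flank did, against 27.6%. In 73 tiles (5.89%) a flank lay below the centre, against 69.2% of all tiles with such probes. The left flank was the higher in 1069 of 2190 tiles with probes on both sides (48.8%), near the 48.9% of all tiles, so neither side led. The order was seldom shared by every probe: each centre probe lay below each flank probe in 648 tiles (28.6%), against 6.06% of all tiles. Centre probes of the same tile spanned a median of 2.40 and flank probes 2.83 on the log2 scale. The spread among probes of a zone was thus larger than the median contrast of -1.85 ± 0.064 (SD, n = 3 control arrays). In all tiles the corresponding spans were 2.10 for centre probes and 3.13 for flank probes.

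Probes between 250 and 500 bp from the centre, the shoulders, took no part in the choice and lay in 2228 of the tiles. Their level was near that of all tiles. Their median was 0.017 ± 0.013 on control arrays and 0.017 ± 0.012 on cadmium arrays, against 0.021 in all tiles. A gradual change from centre to flank would place them between centre and flank, which held in 1139 tiles (51.1%), against 14.7% of all tiles. In 417 tiles (18.7%) the shoulder was below the centre, against 49.6% of all tiles, and in 672 (30.2%) it was above the flanks, against 53.6%. The rule set centre and flank apart, so these shares are a description.

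The change came as a step at the borders of the windows the rule used. The choice acted on the probes on 1 side of each border alone, so the steps are a description. Probes at 200 to 250 bp, counted as centre, averaged -1.24 ± 0.037 in control, while those at 250 to 300 bp, not counted, averaged -0.12 ± 0.028. Probes at 450 to 500 bp averaged 0.015 ± 0.020, and those at 500 to 550 bp, counted as flank, averaged 0.67 ± 0.038. Both steps recurred on the cadmium arrays, which read the same probes. There the values were -1.07 ± 0.22 against -0.11 ± 0.034 at the inner border and 0.023 ± 0.019 against 0.60 ± 0.12 at the outer. The 2542 tiles with the opposite contrast, over 1 on every control array, gave the mirror image, with 0.91 against 0.039 at 250 bp and -0.076 against -0.73 at 500 bp.

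**Figure D1:**
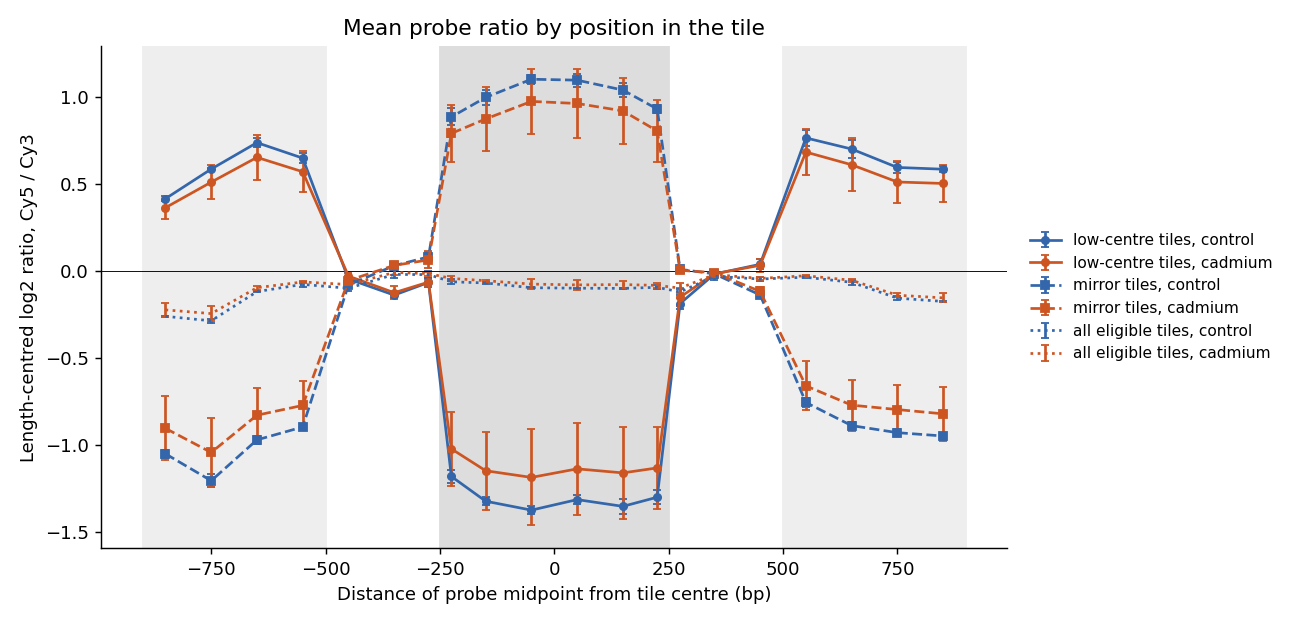
Mean length-centred log2 ratio of Cy5 over Cy3 of probes by signed distance of the probe midpoint from the tile centre (bp), for low-centre tiles, mirror tiles and all judged tiles; points are means of 3 arrays and bars are SD. The dark band is the centre window and the pale bands are the flanks: low-centre tiles sit between -1.37 and -1.18 inside 250 bp in control and between -0.19 and 0.039 in the unshaded gaps, and the mirror tiles step in the other direction at the same borders.

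A small gradient remained in the shoulders. In 1466 low-centre tiles with probes in both parts, the inner part of the shoulder, nearer the centre, differed from the outer by -0.12 ± 0.0041 in control and by -0.11 ± 0.022 in cadmium. It was below on each of the 6 arrays, from -0.13 to -0.085. The arrays read the same probes, and the SD is over arrays, so the spread among tiles is not given by it. The same quantity was 0.042 in all tiles and 0.19 in the mirror tiles. The pooled gradient therefore ran in the direction of the contrast, at a small part of its size. The sides differed. Control means at 275, 350 and 450 bp were -0.19, -0.017 and 0.039 on the right. On the left they were -0.065, -0.14 and -0.045, so the probes nearest the centre were not the lowest there.

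Splitting the probes of each tile gave the same picture. Usable probes were numbered along the tile, the rule was applied to the odd-numbered probes alone (1 probe or more per zone), and the contrast was read in the even-numbered ones. The odd probes chose 2540 of 11110 tiles, with a contrast of -2.27 ± 0.072 (mean of 3 control medians). In the even probes of those tiles the contrast was -0.31 ± 0.0048, against 0.041 in all tiles. It was under -1 on all 3 control arrays in 776 tiles (30.6%), against 25.3% of all tiles. With the roles exchanged, 2814 tiles were chosen at -2.37 ± 0.079, and the odd probes gave -0.18 ± 0.011 there against 0.090 in all tiles, with 776 tiles (27.6%) under -1 against 22.9%. The contrast of the probes set aside was below 0 in 56.1% of the chosen tiles against 49.1% of all tiles, and in 54.5% against 48.0% with the roles exchanged. Probes set aside thus followed the direction of the dip a little more often than in all tiles, and held little of its depth.

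**Figure D2:**
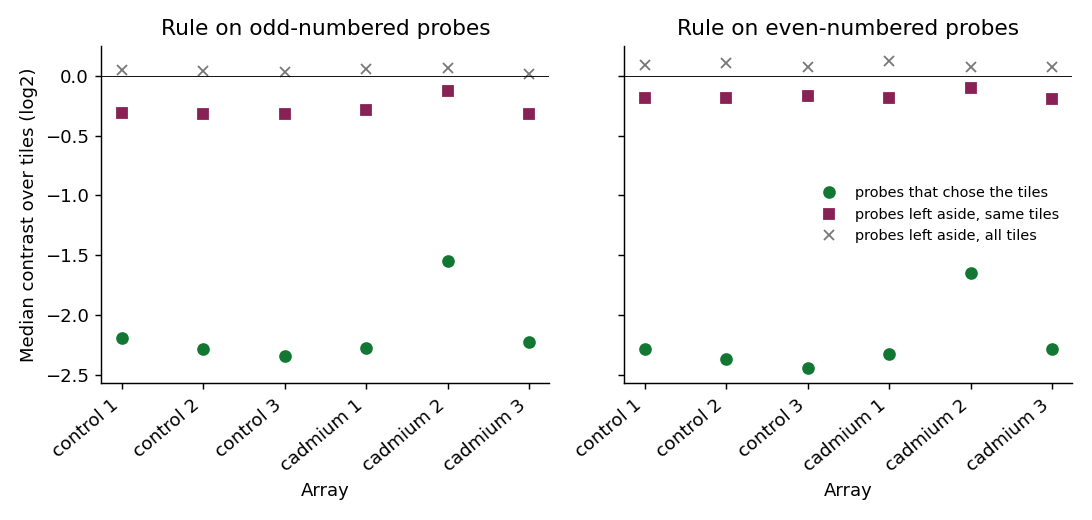
Median contrast (log2) on each of the 6 arrays when odd-numbered (left) or even-numbered (right) probes choose the tiles: circles are the probes that chose, squares the probes set aside in the same tiles, crosses the probes set aside in all tiles. On every array the squares lie between -0.32 and -0.10, close to the crosses and far above the circles, which lie at -1.55 or lower.

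The dip itself was highly repeatable between arrays, which all read the same probes. When the rule was applied to 2 control arrays, the third held out, 92.0% to 94.9% of the chosen tiles were under -1 on the held-out array, against 23.2% to 24.5% of all tiles there. The medians on the held-out arrays were -1.72, -1.80 and -1.83. The cadmium arrays, which the rule did not use, showed it as well. On cadmium replicate 1, 2171 of the 2265 low-centre tiles (95.8%) were under -1 (23.8% of all tiles). On replicate 3 it was 2149 (94.9%; 23.4% of all tiles), and on replicate 2 it was 1464 (64.6%; 15.7% of all tiles).

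Over the 3 cadmium arrays together, 1389 low-centre tiles (61.3%) stayed under -1, against 12.6% of all tiles. Without replicate 2 the count was 2090 (92.3%), against 20.7%. The opposite contrast was kept at least as often: 1693 of the 2542 mirror tiles (66.6%) were over 1 on all 3 cadmium arrays. Repeatability was thus not particular to the low-centre tiles. A contrast below 0 on all 3 cadmium arrays was found in 2251 low-centre tiles (99.4%), and the other 14 were at or above 0 on replicate 2 alone. The share of all tiles was not counted for the 3 cadmium arrays together. On single control arrays 48.1% to 48.4% of all tiles were below 0. The median contrast of all tiles was 0.057, 0.071 and 0.063 on cadmium arrays 1 to 3, so fewer of them lay below 0 than above it on each. Another 79 tiles that were not chosen were under -1 on every cadmium array, 0.841% of the 9393. Divided by each array's own median absolute deviation over all tiles, the median contrast of the low-centre tiles was -1.74 on replicate 2 and -1.85 to -1.81 on the other arrays. The narrower spread of that array moved with its smaller dips.

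**Figure D3:**
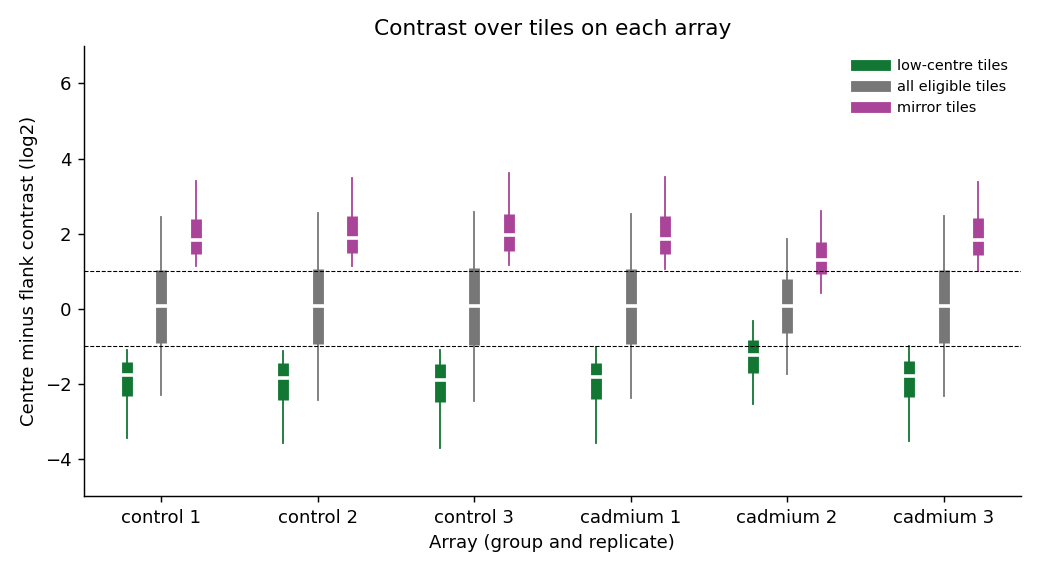
Contrast (centre minus flank, log2) over low-centre tiles, all judged tiles and mirror tiles on each array; white marks are medians, thick bars the middle 50% and thin lines the 5th to 95th percentiles of tiles, with dashed lines at -1 and 1. Medians of the low-centre tiles are -1.91 to -1.78 on the control arrays and -1.81, -1.25 and -1.80 on the cadmium arrays, where all 3 sets are narrower on cadmium 2.

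Most of the contrast lay in the captured DNA and part of it in the input. In the Cy5 channel alone, the centre was lower than the flanks by a median of -1.54 ± 0.033 in control (-1.45 ± 0.082 in cadmium). In the Cy3 channel, the input, the centre was higher by 0.46 ± 0.081 (0.31 ± 0.31 in cadmium, 0.49 without replicate 2). Over all tiles these control medians were -0.070 and -0.14, and in the mirror tiles 1.35 and -0.66. The Cy5 signal was lower in the centre in 2008 tiles (88.7%), the Cy3 signal was higher there in 1480 (65.3%), and both held in 1223 (54.0%). Cy5 was the larger part of the contrast in 1518 tiles (67.0%). These shares were not counted over all tiles, so how far they differ from those of any tile is not known.

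An input signal that differs between the zones was part of the dip in many tiles, although input DNA carries no methylation selection. The ratio of both channels chose the tiles, so the shares that follow are a description. The Cy5 contrast alone was under -1 in 1509 tiles (66.6%), against 27.6% of all tiles, and the Cy3 contrast alone exceeded 1 in 752 (33.2%), against 17.7%. Detection moved along with the Cy5 dip: 63.8% of centre probes and 83.3% of flank probes had Cy5 well above background on all 6 arrays, against 74.0% and 75.2% in all tiles. For a centre not well above background the size of the Cy5 dip is a bound. How much of the dip comes from probe behaviour was not tested.

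**Figure D4:**
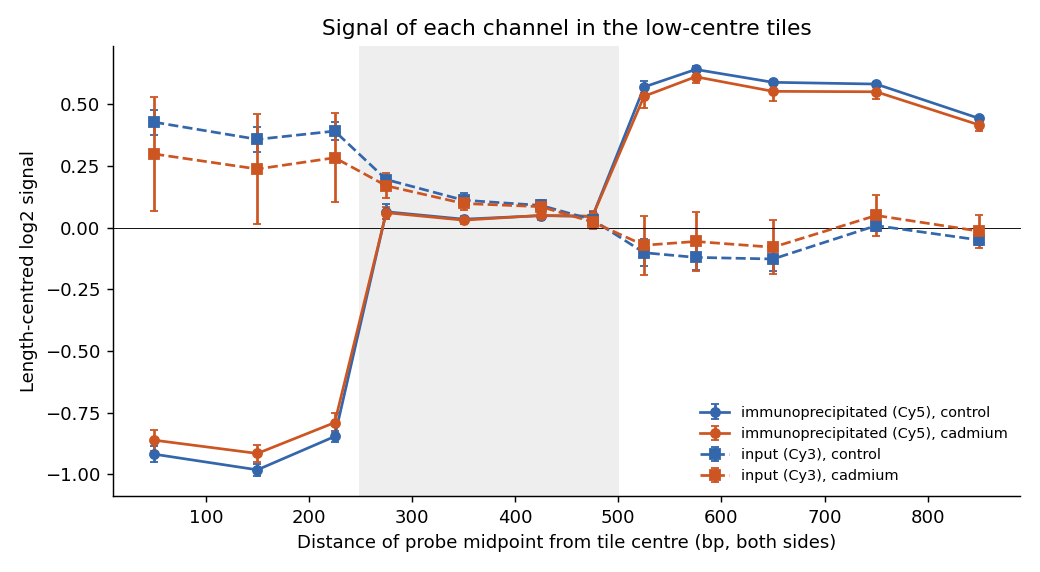
Length-centred log2 signal of the captured DNA (Cy5) and of the input (Cy3) by distance of the probe midpoint from the centre (bp, both sides together) in low-centre tiles; points are means of 3 arrays and bars are SD. The shaded gap marks probes the rule did not use, where Cy5 is 0.034 to 0.065 in control; Cy5 is -0.98 to -0.85 in the centre and Cy3 is 0.36 to 0.43 there.

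In layout the low-centre tiles resembled the other tiles. Their median length was 1663 bp (middle 50% from 1589 to 1722 bp), against 1670 bp in all tiles, with 9 usable probes in both. The nearest other tile lay at a median of 32122 bp, against 30434 bp. Probe length differed a little: 45-base probes, the shortest, were 52.7% of centre and 51.3% of flank probes, against 50.4% and 50.7% in all tiles. The longest, of 60 bases, were 8.76% of centre and 10.1% of flank probes, against 11.2% and 10.3%.

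The share of tiles with a low centre moved with the difference in probe length between the zones. It was 21.8% (530 of 2434) where centre probes were shorter by over 3 bases, 19.97% (1319 of 6606) within 3 bases, and 15.9% (416 of 2618) where they were longer. Mirror tiles ran the other way, from 19.5% to 26.4%. In 542 tiles whose centre and flank probes all had 45 bases, 83 (15.3%) had a low centre. The ratios had been centred for each probe length, and whether a remainder of that effect set these shares was not tested.

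The tiles were spread over the genome. By chromosome, the share of judged tiles with a low centre ran from 16.5% on chromosome 20 (57 of 346) to 24.1% on chromosome 15 (91 of 377), and chromosome 1 held the most, 309. The next tile along the chromosome was a low-centre tile in 475 of 2262 cases (21.0%), against 19.4% after any tile, and in 88 of 387 (22.7%) where it lay within 20 kb, against 19.3%, so a neighbour was a low-centre tile about as often as any tile. On chromosome X, outside the rule, 74 of 410 tiles (18.0%) met the same threshold.

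Individual tiles show what the rule selected. Among tiles with at least 3 centre probes and 2 flank probes a side, the lowest mean control contrast was at chr6:137827623-137829266. Its contrast was -4.83, -4.73 and -4.62 on control arrays 1 to 3 and -5.10, -3.17 and -4.35 on cadmium arrays 1 to 3. The 3 centre probes averaged -0.80, -3.30 and -5.26 in control, and the 4 flank probes averaged 2.05, 2.34, 0.22 and 1.81. Right of the centre, shoulder probes at 319.5 and 484.5 bp were at -0.82 ± 0.054 and -4.16 ± 0.20, and the shoulder probe on the left side was at 2.00 ± 0.36. Low values in this tile thus ran past the centre window on the right, unevenly. Its dip lay in the captured channel (Cy5 contrast -5.05 ± 0.27, Cy3 contrast -0.36 ± 0.17).

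The tile at chr8:68212204-68213956 had the lowest mean contrast on the cadmium arrays of all low-centre tiles. Its contrast was -5.24, -5.50 and -6.38 on the control arrays and -5.37, -3.21 and -6.20 on the cadmium arrays. Both centre probes were low in control, at -4.76 and -4.50, and all 5 flank probes were above 0, between 0.44 and 1.55. Every probe of this tile had 45 bases. The shoulder probe to the right was back at 0.84 ± 0.25, so the low stretch was covered by 2 probes.

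At chr15:47635016-47636736 the low centre was interrupted. The contrast was -4.29, -3.88 and -4.30 in control and -4.07, -3.03 and -3.67 in cadmium. The outer 2 centre probes were at -4.96 ± 0.62 and -5.16 ± 0.26 in control, while the probe between them was at 1.67 ± 0.38. That middle probe carried an outlier mark from the scanner software on at least 1 array. Without such probes the control contrast was -6.40. Neighbouring probes of 1 tile thus differed by more than the replicate spread, on every array alike.

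At chr2:3181137-3182861 the depth rested on 2 outlier-marked probes. Its contrast was -4.40, -4.80 and -4.52 in control and -4.42, -3.01 and -4.02 in cadmium. The centre probes were at -0.11, -3.92 and -7.80. Without the marked probes 1 centre probe was left, and the control contrast was -0.73. Here the input was the larger part, with a Cy3 contrast of 3.19 ± 0.16 against a Cy5 contrast of -1.38 ± 0.31.

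At chr10:88224385-88226007 the contrast was -4.23, -4.39 and -4.34 in control and -4.22, -3.35 and -4.03 in cadmium. All 3 centre probes were low, between -4.73 and -2.32, and the Cy5 channel carried most of it (-3.46 ± 0.12). The shoulders, at 2.24 ± 0.06, were higher than the flanks at 0.85 ± 0.07. The other 4 of the 8 lowest under the same probe limit had mean control contrasts between -4.37 and -4.16, at chr1:197174841-197176460, chr18:45361356-45363031, chr2:96444972-96446668 and chr10:95384821-95386537. On each of the 8 tiles, cadmium replicate 2 was the least negative of the 6 arrays.

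**Figure D5:**
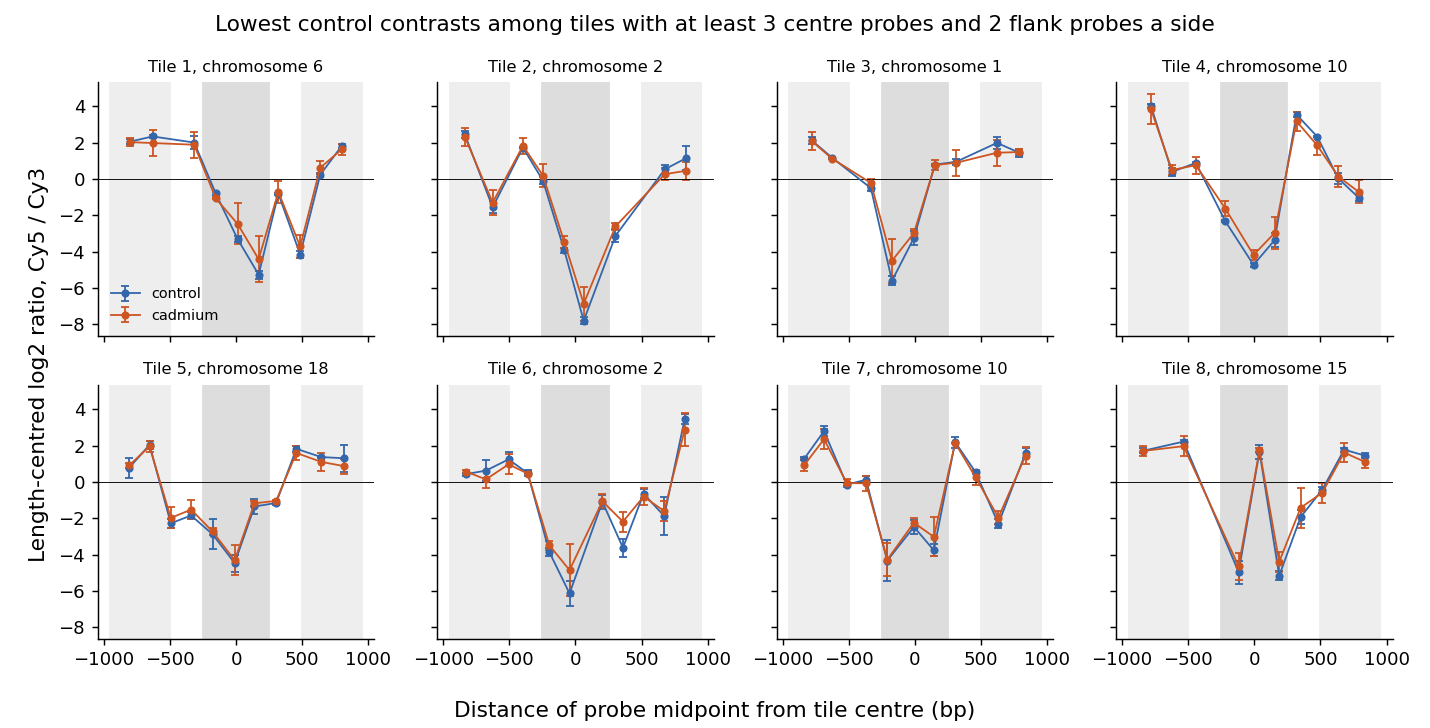
Length-centred log2 ratio of Cy5 over Cy3 of each usable probe by distance from the tile centre (bp) in the 8 low-centre tiles with the lowest mean control contrast among those with at least 3 centre probes and 2 flank probes a side, in order from the lowest; points are group means of 3 arrays and bars are SD. Dark bands mark the centre and pale bands the flanks; in tile 8 the middle centre probe is at 1.67 in control between neighbours near -5, and in tile 4 the shoulders are above the flanks.

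The tiles nearest the threshold were picked for that, and their values are a description. Just inside it, the highest control contrast was -1.00021 at chr1:147886199-147887825 and -1.00027 at chr19:54934618-54936339, with the other control arrays between -1.84 and -1.07. Just outside, it was -0.99974 at chr7:110810266-110811913 and -0.99828 at chr17:53131012-53132656, with the others between -1.21 and -1.02. On the cadmium arrays the inner pair had means of -1.15 ± 0.21 and -1.04 ± 0.41, and the outer pair -0.57 ± 0.12 and -0.62 ± 0.38.

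The comparison of cadmium with control asks whether methylation of these promoters differed in the offspring of exposed dams. The tile ratio, the mean over all usable probes of a tile, was tested across the 11658 tiles with limma and Benjamini-Hochberg adjustment. No low-centre tile passed an adjusted p of 0.05, where 0.0172% of all tiles did (2 tiles, both higher in cadmium); the lowest adjusted p of a low-centre tile was 0.944. At an unadjusted p under 0.05 there were 46 low-centre tiles (2.03%), against 2.87% of all tiles. Of these, 36 were higher in cadmium (1.59%, against 2.05% of all tiles) and 10 were lower (0.442%, against 0.823%). The 3 cadmium arrays lay above all 3 control arrays in 131 low-centre tiles (5.78%), against 5.57% of all tiles, and below them in 65 (2.87%), against 3.35%. These shares were near those of all tiles.

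The size of the differences can be bounded. The median tile ratio difference (cadmium minus control) was 0.014 in low-centre tiles and 0.012 in all tiles, and 90% of low-centre tiles lay between -0.17 and 0.22. Within scan batches the median was 0.0082 (cadmium replicate 1 against control replicates 1 and 2) and -0.00022 (cadmium replicate 3 against control replicate 3). The median half-width of the 95% interval for a single tile was 0.24, so in a typical tile a smaller difference was not detectable even before adjustment.

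The low-centre tile with the smallest unadjusted p was at chr5:66150272-66151527. Its tile ratio was -0.57, -0.40 and -0.64 in control and -0.16, -0.14 and -0.19 in cadmium. The groups did not overlap, and the difference was 0.38 (SE 0.098, adjusted p = 0.944 with limma). It was 0.33 and 0.45 within the 2 scan batches that held both groups. The next 3 higher in cadmium, also without overlap, were at chr2:118525690-118527335 (0.47), chr19:53436348-53438017 (0.30) and chr15:54157086-54158835 (0.28). In the first of these, replicate 2 stood apart: the ratio was -1.06, -0.44 and -0.98 in cadmium and -1.29, -1.28 and -1.33 in control.

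In the other direction the smallest p was at chr14:19110226-19112023, with 0.82, 1.04 and 0.90 in control and 0.61, 0.55 and 0.59 in cadmium. The groups did not overlap and the difference was -0.34 (SE 0.096, adjusted p = 0.944 with limma), or -0.32 within each of the 2 batches. Its shoulders differed most, at 1.36 ± 0.10 in control and 0.54 ± 0.15 in cadmium, while the centre was -1.13 ± 0.26 and -1.04 ± 0.25. The next were at chr13:43814634-43816265 (-0.37), chr4:186920774-186922541 (-0.30) and chr1:186192382-186193998 (-0.24). All 8 tiles were picked for their p, so their size is a description, and none held after adjustment over the tiles tested.

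The contrast itself is given without a test, because low control values chose the tiles and a difference from cadmium is drawn upward by that choice. Its median in low-centre tiles was -1.85 ± 0.064 in control and -1.62 ± 0.32 in cadmium, or -1.81 without replicate 2. The median difference per tile was 0.26, against -0.0024 in all tiles. It was -0.015 within the batch of cadmium replicate 1 and 0.12 within that of replicate 3.

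The tiles whose dip was shallowest on the cadmium arrays are also described without a test. At chr4:87114958-87116508 the contrast was -1.43, -1.76 and -1.59 in control and -0.99, 0.16 and -0.69 in cadmium. The centre was -0.44 ± 0.13 in control and 0.40 ± 0.23 in cadmium, and the flanks 1.16 ± 0.05 and 0.92 ± 0.40. A single centre probe, 118 bp right of the centre, was at -2.30 ± 0.34 in control and -0.52 ± 0.76 in cadmium without overlap, and the other 2 overlapped between groups. The 3 other tiles, at chr16:69181250-69182855, chr1:211407525-211409253 and chr1:242007977-242009694, had control means of -1.22 to -1.14 and cadmium means of -0.45 to -0.40. Replicate 2 was the highest array in each of the 4. The second lowest tile in cadmium, at chr1:202195045-202196704, had flank probes on its right side alone, and its contrast of -4.88 ± 0.66 there (-5.40 ± 0.23 in control) rested on a flank at 3.71 ± 0.16 in control.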

How the data were processed

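The deposited scanner files hold spot intensity values made with Agilent Feature Extraction 11.0.1.1, per the file headers: processed Cy5 and Cy3 signals, background-subtracted and dye-scaled by the authors' software. The deposited value table, used as an alternative, holds the authors' log2 values for the same probes; the submitters' processing notes name limma, and its scale and centring stay unknown. Its medians on control arrays 1 to 3 were -0.024, -0.032 and -0.0015, and on cadmium arrays 1 to 3 -0.034, 0.027 and -0.025; over probes it followed the scanner ratio in the same direction (r 0.876 to 0.884). No per-sample column was left unused. Dyes are as the labels give them, so the direction of the ratio rests on the labels.

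Of 172669 probes that are not controls, 153335 with input well above background on all 6 arrays were used. The log2 ratio of Cy5 over Cy3 was centred on each array's median for probes of equal length (45 to 60 bases); no loess or quantile step was taken. Outlier-marked probes were kept. Tiles were formed on all 172669 probes, and distances use probe midpoints. Tile means were fitted by limma 3.58.1 (lmFit, eBayes; R 4.3.3), two-sided, all 6 arrays, no covariate, Benjamini-Hochberg over 11658 tiles; the fit was tested on simulated data. Fits of the contrast and of each channel's contrast were planned and run, and are not reported, since the control contrast chose the tiles. Other steps used Python 3.11.15. Scan batches come from the file headers.

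Members and lists were chosen with earlier results of these data known. Named were the 8 tiles with the lowest control contrast among those with at least 3 centre probes and 2 flank probes a side, the 4 smallest p in each direction, the 2 tiles on either side of the threshold, and the 4 highest and 2 lowest cadmium contrasts. Alternatives covered length centring, normalization, background, filters, windows, thresholds, blocks and each array left out; normexp (offset 50) was planned on mean signals and run on the median signals of the files. The split of probes, the 250 to 500 bp probes and the count without cadmium replicate 2 were added after seeing the data. Genes and sequences were not analysed here, since the tables used are of another build than rn4.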

Additional observations from a re-analysis of the deposited data

How the results depend on the processing

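In every alternative fitted, no low-centre tile passed for the tile ratio; the lowest adjusted p of a low-centre tile for the tile ratio ran from 0.0677 to 1.00 (limma). Over all tiles, 2 passed for the tile ratio; 1 did with the array median in place of length centring, with quantile scaling, equal spread, normexp, no filter on dim probes or outlier-marked probes left out, 0 with medians of probes, 14 with scan batch as a block, 5 with it as a random block, 10 with array weights, and 0 to 2 with each array left out. Replicate numbers did not pair the arrays (correlations of deviations -0.068, 0.064 and 0.42); with the replicate block, 2 tiles and 0 low-centre tiles passed, and 86 low-centre tiles (3.80%) had an unadjusted p under 0.05, against 4.38% of all tiles. The 2265 low-centre tiles became 1242 with normexp, 1320 with both channels above background, 1239 with the deposited values, 3478 at -0.5, 1291 at -1.5, 1103 with 3 probes or more per zone, and 1468 by the cadmium arrays (1389 shared). The 1389 under the threshold on all 3 cadmium arrays became 738, 719, 903, 2681, 664 and 641 under the first 6 of these settings. The 2681 and 664 were counted under -0.5 and -1.5, the thresholds of those settings, and the others under -1. With 1 cadmium array left out the count was 1415 to 2090, the highest without replicate 2. With the array median in place of length centring, 1595 of the 2265 were chosen again. Of the contrasts of named tiles under the alternatives, 79 stayed within the replicate spread, 93 moved beyond it and 7 reversed: chr17:53131012-53132656 in control to 0.19 (normexp) and 0.40 (both channels), chr1:211407525-211409253 in cadmium to 0.045 (array median), and chr1:242007977-242009694 in cadmium to 0.31 (loess), 0.10 (normexp), 0.37 (no dim filter) and 0.60 (deposited values). The cause was not tested.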
